A study of Mus musculus with 15 samples.

Results

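The 10 genes described here encode proteins of prostaglandin metabolism (Ptgs1, Ptgs2, Ptges, Ptgds, Hpgd) and of the lipoxygenase pathways (Alox5, Alox5ap, Alox12, Alox12b, Aloxe3). They were taken by name from the 24543 genes of the deposited expression table, and all 10 were found. All 10 also passed the filter on low values that left 13922 genes for testing, which asked for 3 or more libraries with an RPKM of 1 or more. RPKM counts the reads of a gene per kilobase of its length, relative to the depth of the library.

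Whole skin was compared in 4 groups, 15 libraries in all, and every group carried both alleles K14CreERTM and LSL-SOX2 on the strain background 129/SvEv/C57/B16 X CD-1. K14 denotes the keratin 14 promoter, which drives the tamoxifen-inducible Cre in keratinocytes of the basal epidermis and hair follicle, so that the SOX2 allele is meant to be switched on there and not in the immune or stromal cells of the skin. Wounded set B (4 libraries) and wounded set A (4 libraries) are skin of day 4. Unwounded tamoxifen skin (3 libraries, numbered 2 to 4) and unwounded vehicle skin (4 libraries) are skin of day 0. Tamoxifen was given on the skin at 5 mg/ml in 200 µl of ethanol, and vehicle is ethanol alone. The ages of the mice were not among the sources used here. No group received tamoxifen without the SOX2 allele, and no unwounded skin of day 4 was analysed, so these factors cannot be told apart from SOX2 and from the wound.

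The sources disagree on the treatment of the wounded libraries. Set B is named tamoxifen and set A vehicle in the group row of the deposited gene tables and in the newer group column of the sample sheet. The sample records, the older group column of that sheet and the deposited SOX2 target sheet give the opposite names. Differences are therefore given as set B minus set A, which is tamoxifen minus vehicle by the gene tables and vehicle minus tamoxifen by the records. The names of the unwounded libraries agree in all sources.

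Prostaglandins are made from arachidonic acid, which phospholipases release from membranes. The cyclooxygenases convert it to prostaglandin H2, and terminal synthases turn this into prostaglandin E2, prostaglandin D2 and other prostanoids, which act on their own receptors and are broken down after uptake into cells. Lipoxygenases oxygenate the same fatty acid or linoleate: in leukocytes the route leads to leukotrienes, and in the outer epidermis it serves the lipid barrier. Prostaglandins and leukotrienes are known in skin as mediators of inflammation, pain and repair.

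Depth was 61975321 to 75102345 alignments per library in set B, 39277860 to 67782635 in set A, 48927814 to 52246033 in tamoxifen-treated unwounded skin and 57271879 to 63992429 in vehicle-treated unwounded skin. Replicate 4 of set A was the shallowest. For a gene of 1 kb, 3 reads are worth 0.0399 to 0.0764 RPKM, which covers counting error only. Sox2 lay at 2.07 to 2.64 RPKM in set B, 1.87 to 3.82 in set A, 1.98 to 2.89 in tamoxifen-treated unwounded skin and 1.85 to 2.57 in vehicle-treated unwounded skin, so the ranges overlap and Sox2 does not check the treatment names. Markers of basal keratinocytes were high in every library, at a summed 6990 to 8629 RPKM in set B, 4913 to 8227 in set A, 2457 to 3677 in tamoxifen-treated unwounded skin and 2965 to 3733 in vehicle-treated unwounded skin. Some libraries stood apart in markers. Replicate 4 of set A held 6118 RPKM of the 6 differentiated keratinocyte markers, against 2520 to 3451 RPKM in its replicates 1 to 3. Replicate 2 of set A held 981.8 RPKM of the 6 hair follicle markers, against 7.59 to 29.8 in the other 3.

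In unwounded skin, 7 of the 10 genes fell with tamoxifen and 2 rose. Alox5ap, the activating protein of the leukotriene route, fell most, to 16.0 ± 4.95 RPKM (SD, n = 3) in unwounded tamoxifen skin, against 114 ± 14.9 RPKM (n = 4) in unwounded vehicle skin. Ptgds, a prostaglandin D2 synthase gene, rose to 71.1 ± 7.78 RPKM, against 5.98 ± 2.02 RPKM with vehicle, and Alox12 rose as well. The mean of both wounded sets was higher than that of both unwounded groups in Ptgs2, Ptges and Alox5ap and lower in Ptgds, Alox12 and Aloxe3. Only Ptgs2 and Ptges passed as higher in each wounded set against each unwounded group. Ptgs1 passed in each of these as well, higher than unwounded tamoxifen skin and lower than unwounded vehicle skin. Between the wounded sets only Ptgs2 and Alox5ap passed in the main model, with Ptgs2 higher and Alox5ap lower in set B. In a limma fit of these sets alone that paired libraries by replicate number, Alox12 passed as well (adjusted p = 0.04).

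The counts stand against a high background. In unwounded skin 34.7% of the 13922 tested genes were higher and 34.7% lower with tamoxifen, and the median log2 difference was -1.25 over the 10 genes and 0.0009 over all tested genes. Groups did not overlap for 8 of the 10 genes there, against 69.6% of all tested genes. Between set B and set A, 15.5% of genes were higher and 15.6% lower, the medians were -0.19 over the 10 genes and 0.0023 over all, and the sets did not overlap for 3 of the 10, against 28.3% of all genes. For the mean of both wounded sets minus the mean of both unwounded groups, 3 of the 10 were higher and 3 lower, against 26.9% and 29.5% of all tested genes, with medians of 0.07 and -0.02. Every difference and its standard error is on the scale log2(RPKM + 0.5), which understates changes of low genes, and every adjusted p is limma's over all tested genes of the comparison, with a threshold of 0.05. The labels do not say that each library is a separate mouse, so the p-values measure the spread between these libraries, which may be technical. In whole skin, fewer cells of a type and less RNA per cell cannot be told apart.

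**Figure D1:**
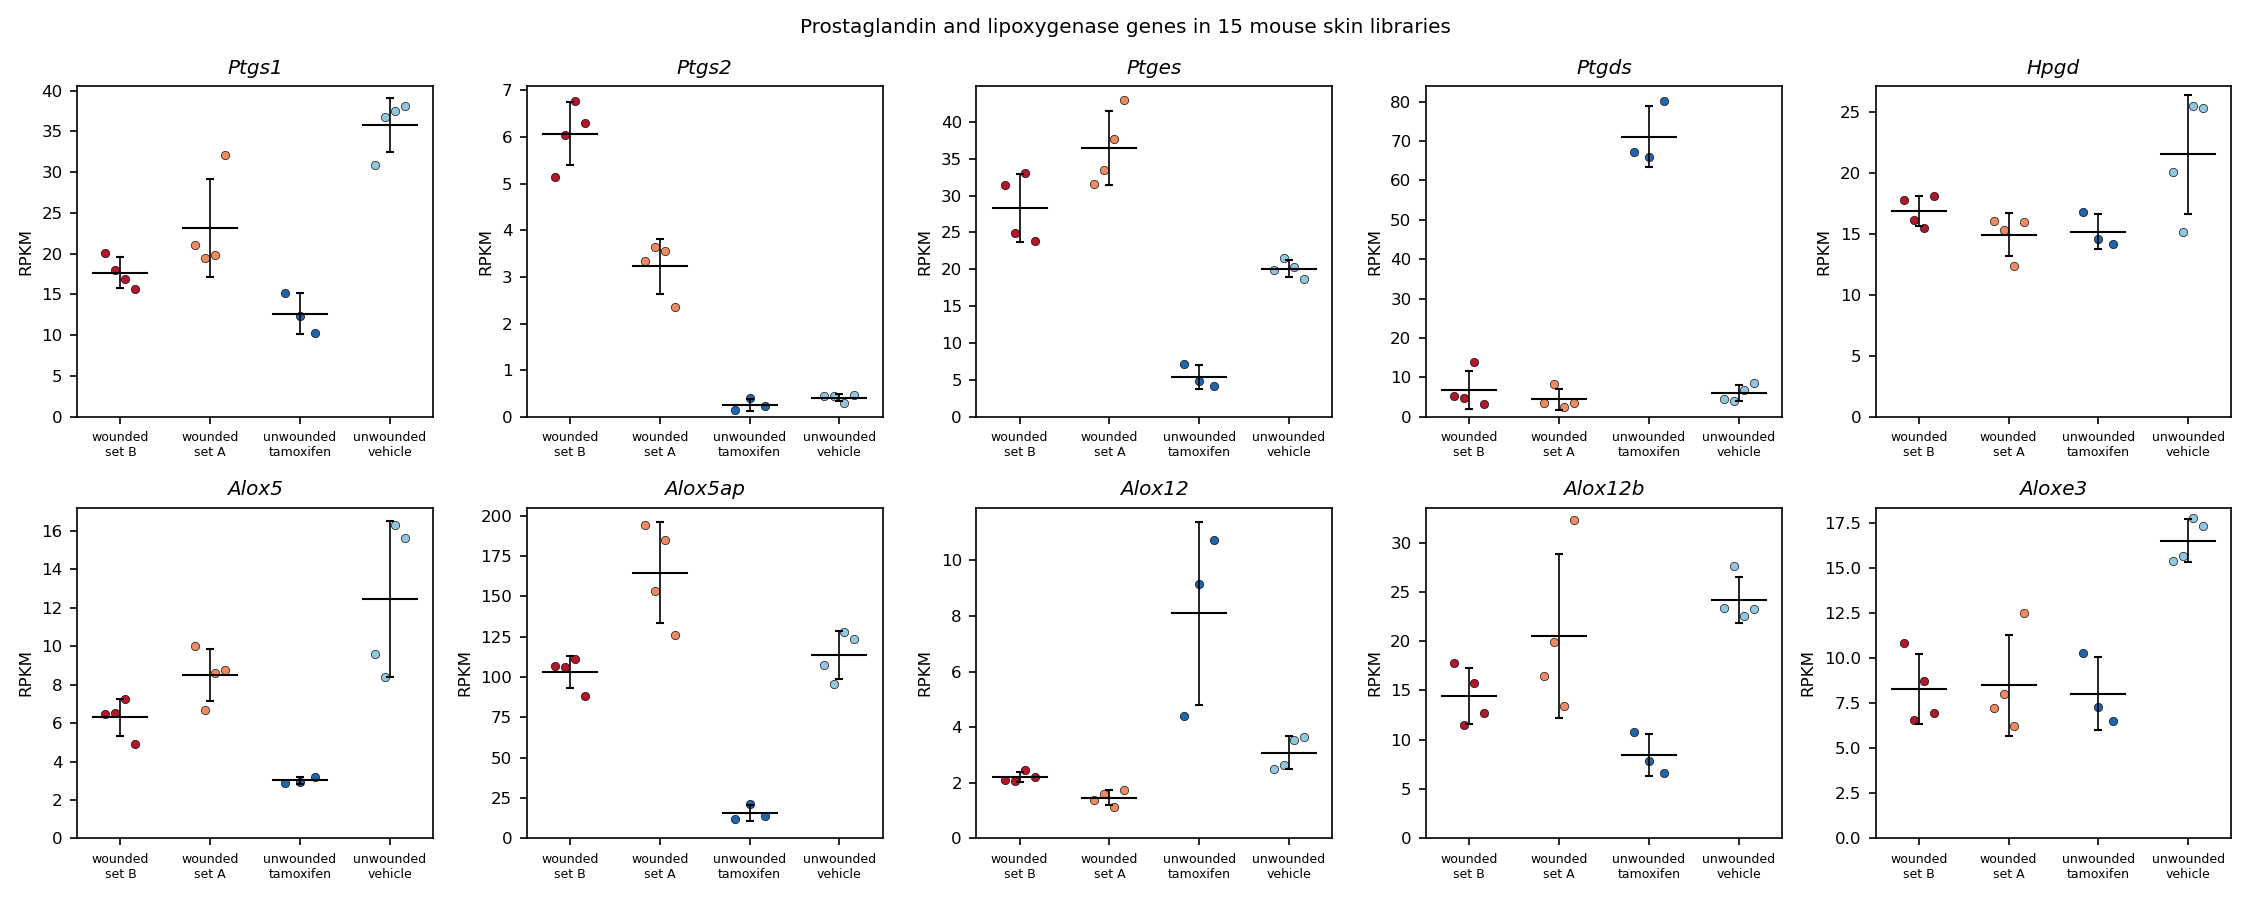
RPKM (linear axes from 0, each with its own scale) of the 10 genes in each of the 15 libraries, one panel per gene, with points for libraries, a long horizontal line for the group mean and error bars for the SD. Ptgs2 lies at 2.36 to 6.76 RPKM in wounded libraries and at 0.142 to 0.462 RPKM in unwounded ones, and Ptgds stands at 66.0 to 80.0 RPKM in unwounded tamoxifen skin.

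**Figure D2:**
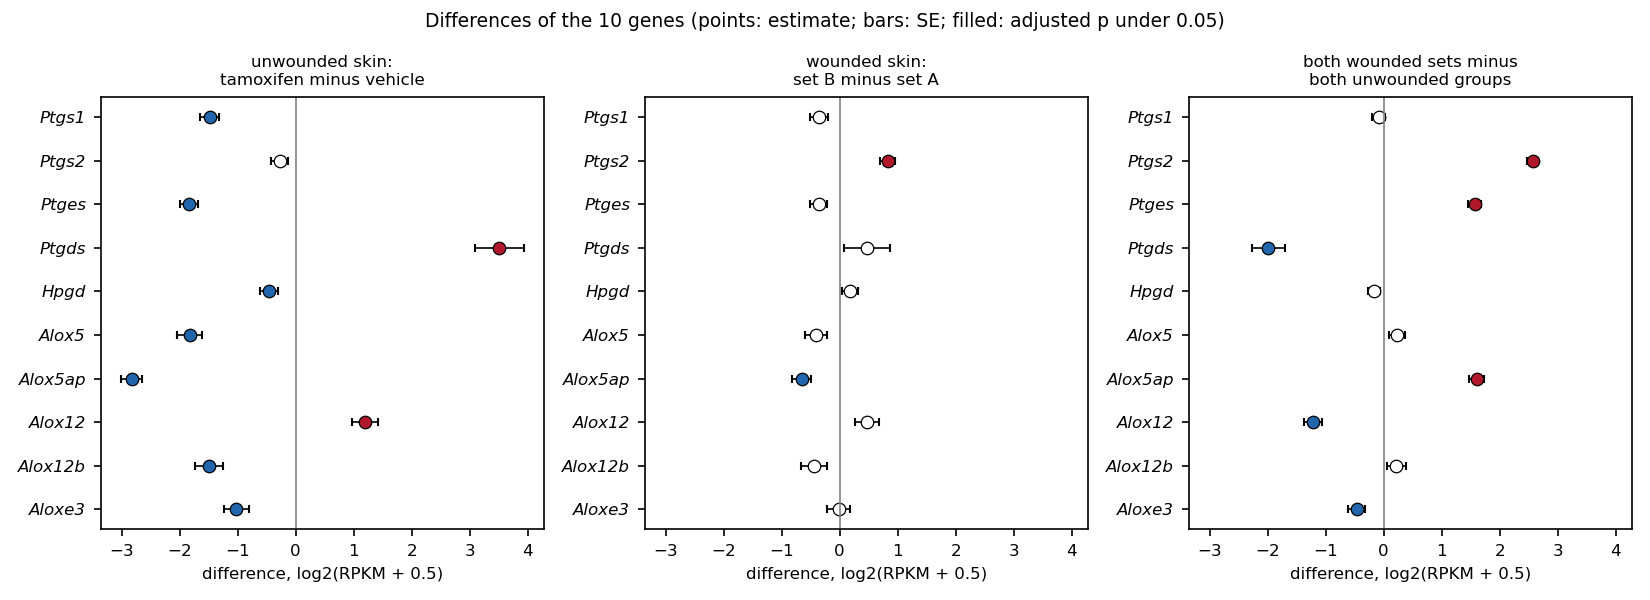
Differences on the scale log2(RPKM + 0.5) of the 10 genes in 3 comparisons, with the standard error as bars. Filled points passed an adjusted p of 0.05 (red higher, blue lower) and open points did not: 9 genes are filled in unwounded skin, 2 between the wounded sets and 6 for wounded against unwounded skin.

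Ptgs1 and Ptgs2 encode the cyclooxygenases COX-1 and COX-2, of which COX-1 is present in many resting tissues and COX-2 is induced by growth factors and cytokines. Ptgs2 (chromosome 1, 150100031 to 150108227, plus strand, GENCODE M21 on mm10) was at 5.15, 6.05, 6.76 and 6.30 RPKM in set B, at 3.35, 3.65, 3.55 and 2.36 in set A, at 0.142, 0.401 and 0.234 in unwounded tamoxifen skin and at 0.443, 0.439, 0.305 and 0.462 in unwounded vehicle skin. All 8 wounded libraries lie above all 7 unwounded ones, and all of set B lies above all of set A. The difference of wounded from unwounded skin was 2.57 ± 0.10 (adjusted p = 3.94e-10), and that of set B from set A was 0.83 ± 0.13 (0.000497). Without replicate 4 of set A, the lowest of its set, set B minus set A was 0.70 (0.000648). The unwounded groups overlap, and their difference of -0.28 ± 0.14 did not pass (0.103). A pseudocount of 0.1 made it pass (-0.56, 0.0347), as did leaving out replicate 3 of the unwounded tamoxifen libraries (0.0308) or replicate 4 of set A (0.0499). The lowest unwounded value rests on 6.96 reads per kilobase. Ptgs2 passed the filter on low values through its wounded libraries alone, as every unwounded value was under 1 RPKM.

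Ptgs1 (chromosome 2, 36230426 to 36252272, plus strand) was at 20.1, 17.96, 16.9 and 15.6 RPKM in set B, at 21.1, 19.5, 19.9 and 32.0 in set A, at 15.2, 12.4 and 10.3 in unwounded tamoxifen skin and at 30.9, 36.7, 37.5 and 38.1 in unwounded vehicle skin. It was lowest in unwounded tamoxifen and highest in unwounded vehicle skin, with no overlap between these groups, and replicate 4 of set A stood apart from its set. The unwounded difference was -1.48 ± 0.17 (adjusted p = 3.3e-06), and that of set B from set A did not pass (-0.36 ± 0.15, 0.093). Wounded skin as a whole did not pass against unwounded skin (-0.08 ± 0.11, 0.549), and its values lay mostly between those of the unwounded groups: set B was above unwounded tamoxifen skin (0.48 ± 0.17, 0.0249) and set A below unwounded vehicle skin (-0.65 ± 0.15, 0.00438). The call of set B was lost without replicate 3 (0.0587) or 4 (0.127) of the unwounded tamoxifen group or replicate 1 of set B (0.066), and without replicate 4 the difference was 0.34. An exon of Ptgs1 overlaps the gene Gm43621 on the opposite strand, and the sources used here do not say whether counting used strand, so their reads cannot be told apart.

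Per length, Ptgs2 was at 0.256 to 0.403 times the RPKM of Ptgs1 in the same library in set B, at 0.0737 to 0.187 times in set A, at 0.00934 to 0.0323 times in tamoxifen-treated unwounded skin and at 0.00814 to 0.0143 times in vehicle-treated unwounded skin. The 3 ranges of set B, set A and unwounded skin are separate. Ptgs1 thus remained the higher of the pair in all 15 libraries.

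**Figure D3:**
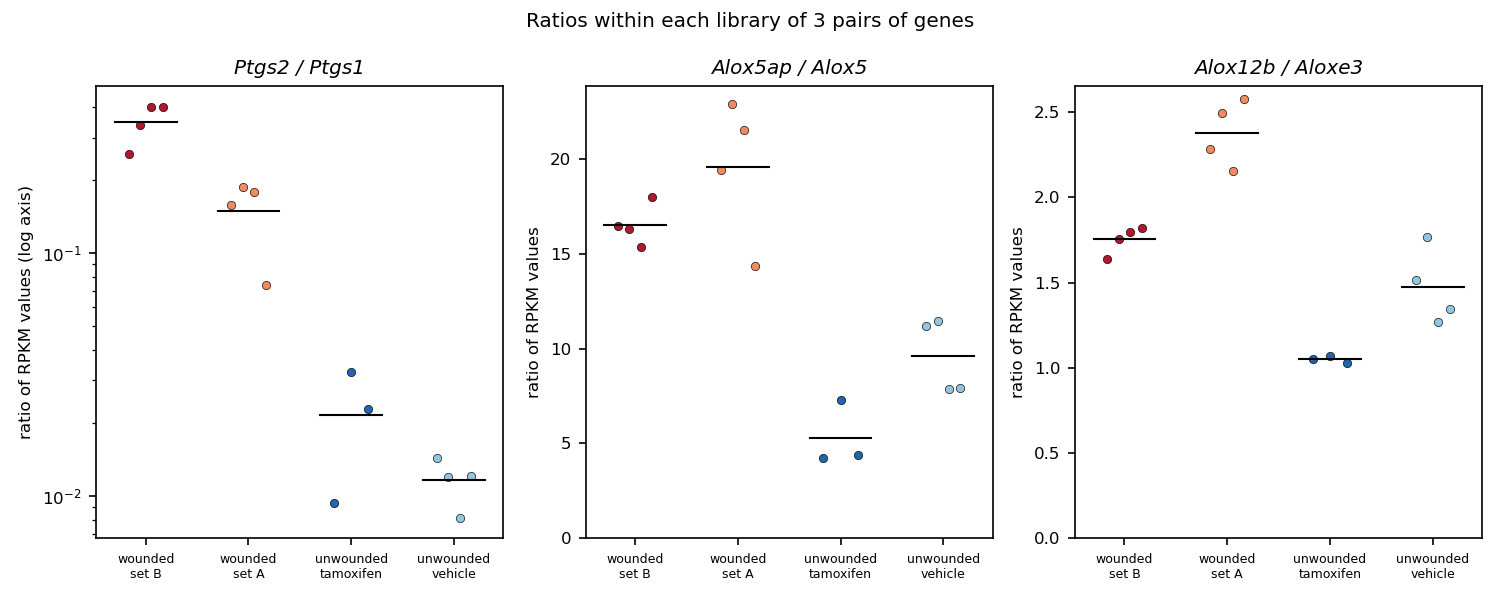
Ratio of RPKM values within each library for Ptgs2 over Ptgs1 (log axis), Alox5ap over Alox5 and Alox12b over Aloxe3 (linear axes from 0), with points for the 15 libraries and a line for the group mean. The ratio of Ptgs2 to Ptgs1 is 0.256 to 0.403 in set B and at most 0.0323 in unwounded skin.

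Ptges encodes the inducible microsomal prostaglandin E synthase, which acts with COX-2, and Ptgds the lipocalin-type prostaglandin D synthase. Ptges (chromosome 2, 30889471 to 30929863, minus strand) was at 31.5, 24.9, 33.1 and 23.9 RPKM in set B, at 31.6, 33.5, 37.7 and 42.9 in set A, at 7.17, 4.87 and 4.13 in unwounded tamoxifen skin and at 19.9, 21.5, 20.3 and 18.7 in unwounded vehicle skin. Every wounded library lies above every unwounded one, and all unwounded tamoxifen libraries lie below the vehicle ones. The wound difference was 1.57 ± 0.11 (adjusted p = 9.91e-08) and the unwounded difference -1.84 ± 0.16 (4.04e-07). Against its own unwounded group by the gene tables' names, set B was higher by 2.31 ± 0.16 and set A by 0.83 ± 0.15. Set B minus set A was -0.36 ± 0.15 and did not pass (0.0827), and it passed with library weights (0.0219) or without replicate 2 of the unwounded tamoxifen group (0.0318).

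Ptgds (chromosome 2, 25466709 to 25470046, minus strand) was at 5.16, 4.66, 13.9 and 3.18 RPKM in set B, at 3.50, 8.32, 2.50 and 3.47 in set A, at 67.2, 66.0 and 80.0 in unwounded tamoxifen skin and at 4.63, 4.09, 6.71 and 8.51 in unwounded vehicle skin. The 3 unwounded tamoxifen libraries lie far above the other 12, which overlap among themselves. Tamoxifen minus vehicle in unwounded skin was 3.51 ± 0.42 (adjusted p = 6.72e-06). Wounded minus unwounded skin was -1.99 ± 0.29 (6.09e-05), and this rests on the unwounded tamoxifen libraries. Set B differed from unwounded tamoxifen skin by -3.51 ± 0.42 (1.38e-05), while set A differed from unwounded vehicle skin by -0.47 ± 0.39 and set B from set A by 0.47 ± 0.39, neither of which passed (0.37 and 0.39). Set B minus set A was 0.07 without replicate 3 of set B and 0.79 without replicate 2 of set A, and did not pass in either fit. All 5 melanocyte markers were also higher in unwounded tamoxifen skin, at a summed 319 to 493 RPKM, against 22.0 to 28.1 RPKM in unwounded vehicle skin, and none of them was at 0. In the wounded sets the sum was 18.8 to 99.2 RPKM in set B and 21.0 to 66.1 in set A, and its highest library in each was the one highest in Ptgds, replicate 3 of set B and replicate 2 of set A. The 6 hair follicle markers were all higher as well, with 10027 to 13155 RPKM in tamoxifen-treated unwounded skin and 9.15 to 15.7 RPKM in vehicle-treated unwounded skin. In the wounded sets they summed to 1729 to 3647 RPKM in set B and 7.59 to 981.8 RPKM in set A, and 6 of 6 were higher in set B, where Ptgds did not pass. Their sum too was highest in replicate 3 of set B and in replicate 2 of set A. The part of these markers in the Ptgds result was not tested.

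The promoters of Ptgs2 and Ptges, which both rose in wounded skin, and of Ptgds, which was lower there in the mean of both sets, are printed from RefSeq on build GRCm38.p6. Each runs from 250 bases before the RefSeq start to the 30th base of the transcript, in the sense of the gene: chr1:150099781-150100060 on the plus strand for Ptgs2, chr2:30903268-30903547 on the minus strand for Ptges and chr2:25469720-25469999 on the minus strand for Ptgds. The RefSeq starts of Ptges and Ptgds lie inside the GENCODE genes given above, so these windows are not at the GENCODE starts. Capitals mark matches of 6 short motifs searched on both strands: TATAAA, the AP-1 site TGANTCA, the E-box CACGTG, the core TGACG of the cAMP response element, and the SOX core motifs ACAAAG and ACAATG.
Ptgs2: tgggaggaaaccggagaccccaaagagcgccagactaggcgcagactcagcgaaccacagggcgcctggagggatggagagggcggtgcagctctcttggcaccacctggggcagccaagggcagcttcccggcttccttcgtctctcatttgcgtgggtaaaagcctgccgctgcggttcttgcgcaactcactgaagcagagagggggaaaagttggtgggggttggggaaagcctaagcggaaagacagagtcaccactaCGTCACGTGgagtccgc
Ptges: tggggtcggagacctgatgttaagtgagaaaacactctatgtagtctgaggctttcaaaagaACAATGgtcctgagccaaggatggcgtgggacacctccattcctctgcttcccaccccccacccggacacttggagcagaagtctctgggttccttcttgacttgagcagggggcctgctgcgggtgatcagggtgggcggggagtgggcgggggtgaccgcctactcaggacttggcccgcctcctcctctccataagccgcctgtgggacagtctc
Ptgds: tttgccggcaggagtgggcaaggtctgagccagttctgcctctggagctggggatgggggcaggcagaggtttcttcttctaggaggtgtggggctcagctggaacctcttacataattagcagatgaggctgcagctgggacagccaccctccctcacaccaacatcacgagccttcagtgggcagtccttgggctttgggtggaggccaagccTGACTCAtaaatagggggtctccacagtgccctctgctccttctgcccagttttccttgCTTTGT
Ptgs2 holds CACGTG at bases 16 to 21, counted from 0 at the first transcribed base, and TGACG on the opposite strand at bases 13 to 17, so the matches overlap. Ptges holds ACAATG at -188 to -183, and Ptgds holds TGANTCA at -35 to -29 and ACAAAG on the opposite strand at 24 to 29. Over the 32851 RefSeq promoter windows, which run to 50 bases after the start, TATAAA was in 13.6%, TGANTCA in 7.81%, CACGTG in 7.15%, TGACG in 20.8%, ACAAAG in 18.7% and ACAATG in 12.6%. These matches describe letters and not bound sites. A window was given for 8 of the 10 genes. Hpgd holds TATAAA and ACAATG, and Ptgs1, Alox5, Alox12 and Alox12b hold none of the 6 motifs. Aloxe3 and Alox5ap had no window.

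Hpgd encodes the dehydrogenase that inactivates prostaglandins. It (chromosome 8, 56294585 to 56321043, plus strand) varied least of the 10 genes, at 15.5 to 18.1 RPKM in set B, 12.3 to 16.1 in set A, 14.1 to 16.8 in tamoxifen-treated unwounded skin and 15.2 to 25.4 in vehicle-treated unwounded skin. All of these ranges overlap their neighbours. Tamoxifen minus vehicle in unwounded skin was -0.46 ± 0.15 (adjusted p = 0.0152), a call lost without replicate 4 of the tamoxifen group (-0.42, 0.0569). Set A was lower than unwounded vehicle skin (-0.49 ± 0.14, 0.0141), a call lost when only these groups were fitted (0.0534). Set B minus set A (0.17 ± 0.14, 0.377) and the wound difference (-0.17 ± 0.10, 0.18) did not pass. Without replicate 2 of the unwounded vehicle group the wound difference passed (-0.25, 0.017).

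Alox5 encodes arachidonate 5-lipoxygenase, the first enzyme of leukotriene synthesis, and Alox5ap the membrane protein that presents arachidonic acid to it. Alox5ap (chromosome 5, 149264767 to 149288153, plus strand) was the highest of the 10 genes in wounded skin and in unwounded vehicle skin. It was at 107, 106, 111 and 88.5 RPKM in set B, at 194, 153, 185 and 126 in set A, at 12.2, 21.6 and 14.1 in unwounded tamoxifen skin and at 108, 95.8, 128 and 124 in unwounded vehicle skin. Unwounded tamoxifen libraries lie below all others, and all of set B lies below all of set A. The unwounded difference was -2.83 ± 0.18 (adjusted p = 4.4e-08), that of set B from set A -0.66 ± 0.17 (0.0105) and that of wounded from unwounded skin 1.61 ± 0.13 (2.77e-07). The wound differences within the gene tables' names differed by 2.17 ± 0.25 (6.12e-05). Set B exceeded unwounded tamoxifen skin by 2.69 ± 0.18, and set A exceeded unwounded vehicle skin by 0.52 ± 0.17 (0.0271) with overlapping ranges. The call of set A was lost without replicate 1 (0.0627) or 2 (0.0782) of the vehicle group and without replicate 1 (0.0801) or 3 (0.0733) of set A. An exon of Alox5ap overlaps the antisense gene Gm19719, whose reads cannot be told apart from its own.

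Alox5 (chromosome 6, 116410077 to 116461178, minus strand) was at 6.30 ± 0.981 RPKM in set B and 8.51 ± 1.37 in set A (n = 4 each), at 3.02 ± 0.176 in unwounded tamoxifen skin (n = 3) and at 12.5 ± 4.07 in unwounded vehicle skin (n = 4). The unwounded tamoxifen libraries, at 2.88 to 3.22 RPKM, lie below all others, and the vehicle libraries are split, with 9.60 and 8.38 RPKM in replicates 1 and 2 and 16.3 and 15.6 in replicates 3 and 4. The unwounded difference was -1.83 ± 0.21 (adjusted p = 3.88e-06). Set B was above unwounded tamoxifen skin (0.94 ± 0.21, 0.00181). Set A was not past the threshold against unwounded vehicle skin (-0.48 ± 0.19, 0.061), but passed without replicate 1 (-0.58, 0.0403) or 2 (-0.65, 0.013) of the vehicle group. Alox5 did not pass between set B and set A (-0.41 ± 0.19, 0.126; 0.0395 with library weights) or for the wound as a whole (0.23 ± 0.14, 0.186). Within a library Alox5ap was 15.4 to 17.97 times as high per length as Alox5 in set B, 14.4 to 22.9 times in set A, 4.23 to 7.29 times in tamoxifen-treated unwounded skin and 7.86 to 11.4 times in vehicle-treated unwounded skin, so the wounded ratios lie above all unwounded ones.

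Both genes are known from myeloid cells and mast cells, and part of the markers of these cells differed between the same groups. The 5 macrophage markers summed to 320 to 410 RPKM in set B, 516 to 785 in set A, 60.5 to 89.0 in tamoxifen-treated unwounded skin and 431 to 730 in vehicle-treated unwounded skin. In unwounded skin 5 of 5 fell with tamoxifen, and 3 of 5 were lower in set B than in set A. In the mean of both wounded sets 5 of 5 were higher. Against unwounded vehicle skin alone, 1 was higher and 0 lower in set A, and 0 were higher and 3 lower in set B. The 6 mast cell markers summed to 81.1 to 105 RPKM in set B, 109 to 269 in set A, 47.1 to 68.6 in tamoxifen-treated unwounded skin and 110 to 204 in vehicle-treated unwounded skin, with 5 of 6 lower and 1 higher in the unwounded comparison and 4 of 6 lower in set B. For the wound, 3 of these 6 were higher and 1 lower. Against unwounded vehicle skin alone, 0 were higher and 0 lower in set A, and 0 were higher and 3 lower in set B. The 6 neutrophil markers summed to 86.0 to 224 RPKM in set B, 87.6 to 195 in set A, 4.41 to 8.04 in tamoxifen-treated unwounded skin and 16.8 to 20.8 in vehicle-treated unwounded skin, and 6 of 6 rose in wounded skin. With tamoxifen in unwounded skin 2 of 6 fell and 4 did not pass, and the same counts held for set B against set A. Ly6g and Ngp were at 0 in unwounded tamoxifen skin, and Ngp in unwounded vehicle skin. Both passed the filter on low values through wounded libraries alone. Macrophage and mast cell markers were at 0 in no group. Markers of other cell types were also lower with tamoxifen in unwounded skin and in set B. With tamoxifen in unwounded skin, 5 of 5 dendritic and Langerhans cell markers, 3 of 3 tested T cell markers, 5 of 5 fibroblast markers and 4 of 4 endothelial markers fell. In set B, 5 of 5, 3 of 3, 4 of 5 and 3 of 4 of these were lower than in set A. For the wound, 2 dendritic and Langerhans cell markers were higher and 2 lower, and 0 T cell markers were higher and 1 lower. There 1 fibroblast marker was higher and 1 lower, and 4 of 4 endothelial markers were higher. The dendritic and Langerhans cell markers summed to 468.5 to 824.1 RPKM in set B, 1376 to 2269 in set A, 364.2 to 608.7 in tamoxifen-treated unwounded skin and 2940 to 3609 in vehicle-treated unwounded skin. The part of these markers in the Alox5 and Alox5ap results, and in the wound rise of Ptgs2 and Ptges, was not tested.

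Alox12 encodes the platelet-type lipoxygenase, which is also known from epidermis. Alox12 (chromosome 11, 70241457 to 70255353, minus strand) was at 2.102, 2.07, 2.45 and 2.21 RPKM in set B, at 1.36, 1.61, 1.13 and 1.75 in set A, at 4.40, 9.14 and 10.7 in unwounded tamoxifen skin and at 2.51, 2.65, 3.52 and 3.65 in unwounded vehicle skin. These 4 groups do not overlap at all, and unwounded tamoxifen skin was the most spread. Tamoxifen minus vehicle in unwounded skin was 1.19 ± 0.23 (adjusted p = 0.000349), and 1.55 when replicate 2 of unwounded tamoxifen skin was left out. The wound difference was -1.22 ± 0.15 (1.73e-05). Although all of set B lies above all of set A, their difference of 0.47 ± 0.21 did not pass (0.102). It passed with library weights (0.51, 0.0111), without replicate 2 of the unwounded tamoxifen group (0.0115), with only these sets in the fit (0.0167) and with the replicate block in such a fit (0.04). Of the 5 platelet markers 3 were tested. Their sum over all 5 was 232 to 627 RPKM in set B, 171 to 439 in set A, 24.3 to 39.8 in tamoxifen-treated unwounded skin and 127 to 265 in vehicle-treated unwounded skin. In unwounded skin the sum was mostly Pf4, with means of 27.8 RPKM with tamoxifen and 201 with vehicle. Of the 3 tested markers Pf4 alone fell there, and 2 did not pass. Gp1ba and Gp9 were under the filter, and the part of platelet markers in the Alox12 results was not tested.

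Alox12b and Aloxe3 encode enzymes that act one after the other on linoleate bound in epidermal ceramides, a step of the skin's water barrier. The genes are neighbours on chromosome 11 and lie on the plus strand, Aloxe3 at 69125896 to 69149115 and Alox12b at 69156989 to 69169792, with 7873 bases between them. Alox12b was at 17.8, 11.5, 15.7 and 12.7 RPKM in set B, at 16.5, 20.0, 13.4 and 32.3 in set A, at 10.8, 7.84 and 6.67 in unwounded tamoxifen skin and at 23.3, 27.7, 22.6 and 23.3 in unwounded vehicle skin. Aloxe3 was at 10.8, 6.55, 8.75 and 6.97 RPKM in set B, at 7.21, 8.01, 6.23 and 12.5 in set A, at 10.3, 7.32 and 6.49 in unwounded tamoxifen skin and at 15.4, 15.7, 17.8 and 17.3 in unwounded vehicle skin. Both fell with tamoxifen in unwounded skin without overlap, with a difference of -1.49 ± 0.24 for Alox12b (adjusted p = 0.0001) and -1.02 ± 0.22 for Aloxe3 (0.000828). Wounded minus unwounded skin was 0.22 ± 0.17 for Alox12b, which did not pass (0.276), and -0.46 ± 0.15 for Aloxe3 (0.0154), and these were not tested against each other. Aloxe3 in set A was below unwounded vehicle skin (-0.97 ± 0.20, 0.00179) and in set B was not past the threshold against unwounded tamoxifen skin (0.04 ± 0.22, 0.891). Alox12b in set B was above unwounded tamoxifen skin (0.74 ± 0.24, 0.0189), and in set A did not pass against unwounded vehicle skin (-0.31 ± 0.23, 0.304). The call of Alox12b in set B was lost without replicate 3 (0.0556) or 4 (0.0878) of the unwounded tamoxifen group or replicate 1 of set B (0.0534), and in set A it was lower without replicate 4 (-0.54, 0.0265) or with library weights (-0.48, 0.0236). Neither gene passed between set B and set A (-0.44 ± 0.23, 0.156 for Alox12b and -0.02 ± 0.20, 0.966 for Aloxe3).

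The ratio of Alox12b to Aloxe3 within a library was 1.64 to 1.82 in set B, 2.15 to 2.58 in set A, 1.03 to 1.07 in tamoxifen-treated unwounded skin and 1.27 to 1.77 in vehicle-treated unwounded skin. Set A lies above the other 3 groups, and unwounded tamoxifen skin below them. Replicate 4 of set A was highest of its set in both genes and, as given above, in differentiated keratinocyte markers. Over the groups these 6 markers summed to 1481 to 2528 RPKM in set B, 2520 to 6118 in set A, 1163 to 1791 in tamoxifen-treated unwounded skin and 3802 to 4465 in vehicle-treated unwounded skin. In the unwounded comparison 4 of 6 fell and 1 rose, and in the wound comparison 5 of 6 fell and 1 rose. None was at 0, and their part in the results of both genes was not tested. Of 11 other genes of the epidermal lipid barrier 3 rose and 3 fell in unwounded tamoxifen skin (median -0.27). Those named by rank of p were Cers3 (0.95 ± 0.18) and Pnpla1 (1.14 ± 0.22) among the higher and Elovl4 (-1.64 ± 0.25) and Sdr9c7 (-0.67 ± 0.16) among the lower. Cers3 encodes a ceramide synthase and Elovl4 a fatty acid elongase of the same route. In wounded skin 4 of the 11 rose and 0 fell (median 0.16), among them Ugcg, a glucosylceramide synthase gene (0.71 ± 0.04, adjusted p = 2.83e-08). Between set B and set A, 1 was higher (Nipal4, 0.82 ± 0.17) and 1 lower (Elovl4, -0.74 ± 0.24).

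The wound comparison by single groups depended on which pair was taken. Set B against unwounded tamoxifen skin had 6 of the 10 genes higher and 2 lower, against 25.9% and 28.9% of all tested genes. Set A against unwounded vehicle skin had 3 higher and 4 lower, against 20.4% and 19.4%. By the records' names, set A against unwounded tamoxifen skin had 6 higher and 2 lower (background 31.3% and 34.1%), and set B against unwounded vehicle skin 2 higher and 4 lower (30.7% and 28.6%). These 4 comparisons share libraries in pairs. Ptgs2 and Ptges were higher in all 4: Ptgs2 by 3.12, 2.02, 2.29 and 2.85 in that order and Ptges by 2.31, 0.83, 2.67 and 0.47. Alox5ap was higher in 3 of them and did not pass for set B against unwounded vehicle skin (-0.14 ± 0.17, 0.513). No other gene of the 10 was higher against unwounded vehicle skin in either set.

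The interaction asks whether the treatment difference in wounded skin differs from that in unwounded skin. Under the gene tables' names, 8 of the 10 genes had a higher and 1 a lower treatment difference in wounded skin, against 19.7% and 20.2% of all tested genes. Alox5ap gave 2.17 ± 0.25 (adjusted p = 6.12e-05) and Ptgds -3.04 ± 0.58 (0.00124), while Alox12 did not pass (-0.72 ± 0.31, 0.0776). Under the records' names 6 were higher and 3 lower, against 33.9% and 34.6%, and Hpgd did not pass (0.29 ± 0.21, 0.233). Ptgs2 changed sign with the naming, at 1.10 ± 0.20 (0.000842) under the gene tables' names and -0.55 ± 0.20 (0.0227) under the records' names. The call under the records' names was lost with a pseudocount of 0.1 (-0.34, 0.331) and without replicate 3 of the unwounded tamoxifen group (0.0734).

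Upstream of the cyclooxygenases, 11 of 13 genes of phospholipase A2 enzymes, which release arachidonic acid, were tested. With tamoxifen in unwounded skin 3 rose and 3 fell (median 0.03). Pla2g4b rose by 2.32 ± 0.27 and Pla2g2e by 1.99 ± 0.35, while Pla2g5 fell by 1.82 on the log2 scale and Pla2g4e by 0.52. In wounded skin 2 rose and 4 fell: Pla2g4e was higher by 1.50 ± 0.13 (adjusted p = 6.04e-07) and Pla2g4f by 0.50 ± 0.12. Between set B and set A, 3 were higher and 2 lower, with Pla2g2f at 0.91 ± 0.22 and Pla2g5 at -0.83 ± 0.19. Counting without replicate 2 of the unwounded tamoxifen group left 3 calls in unwounded skin in place of 6.

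**Figure D4:**
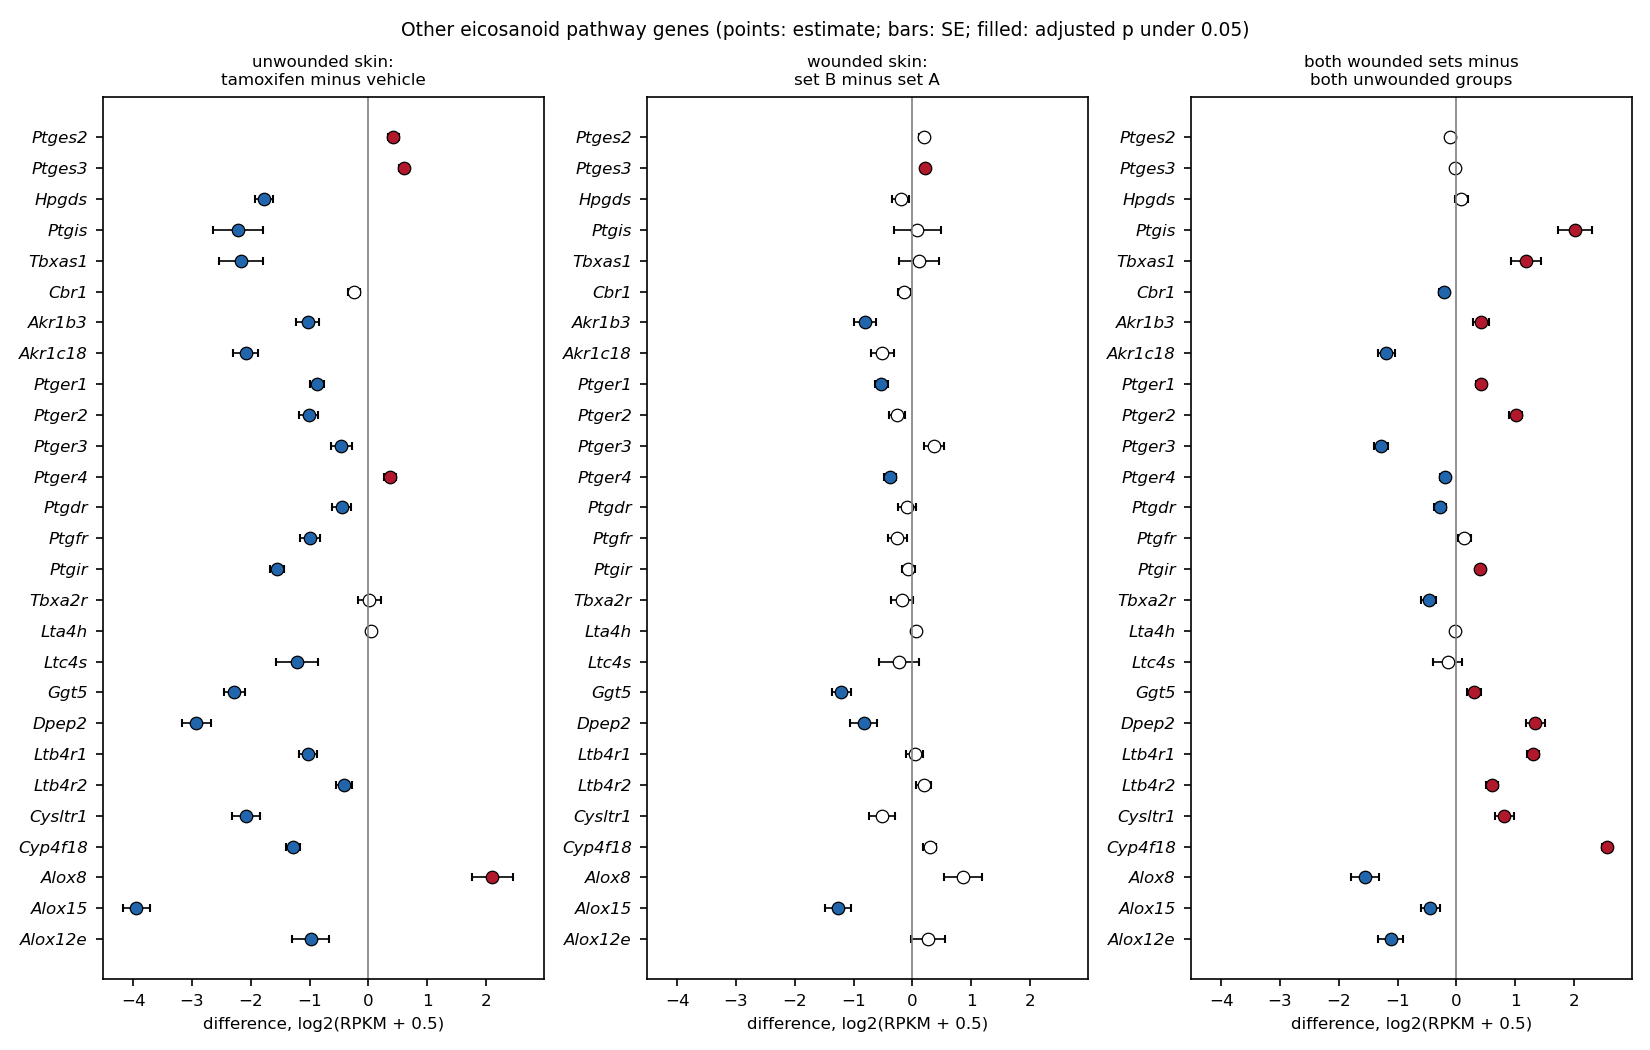
Differences on the scale log2(RPKM + 0.5) of 27 other genes of the pathways (prostanoid synthases and reductases, prostanoid receptors, leukotriene genes and other lipoxygenases, from top to bottom) in 3 comparisons, with the standard error as bars. Filled points passed an adjusted p of 0.05 (red higher, blue lower). In unwounded skin 4 genes are red and 20 blue, and Alox15 has the lowest value, -3.94.

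Of 8 other prostanoid synthases and reductases, 2 rose and 5 fell with tamoxifen in unwounded skin (median -1.40). Hpgds, encoding the hematopoietic prostaglandin D synthase, was at 4.17 ± 1.20 RPKM in unwounded tamoxifen skin (n = 3), against 15.2 ± 1.74 RPKM in unwounded vehicle skin (n = 4), a difference of -1.77 ± 0.15 (adjusted p = 3.7e-07). It fell where Ptgds, the other prostaglandin D synthase gene, rose. Ptges2 (0.43 ± 0.10) and Ptges3 (0.60 ± 0.07), which encode other prostaglandin E synthases, were the 2 that rose, while Ptges fell. Akr1c18 fell by 2.09 on the log2 scale. In wounded skin Ptgis, the prostacyclin synthase gene, was higher by 2.01 ± 0.29 (5.65e-05) and Tbxas1, the thromboxane synthase gene, by 1.18 ± 0.25 (0.00143). The Tbxas1 difference rests on the unwounded tamoxifen libraries, with a mean of 1.40 RPKM. Its means were 8.76 RPKM in set B, 8.59 in set A and 8.02 in unwounded vehicle skin. In all, 3 of the 8 rose in wounded skin and 2 fell (median 0.03), and between set B and set A Ptges3 was higher (0.22 ± 0.07) and Akr1b3 lower (-0.80 ± 0.18).

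Of 9 prostanoid receptor genes 8 were tested, and Ptgdr2, at 0.0075 to 0.226 RPKM over all libraries, was under the filter. In unwounded skin 6 fell with tamoxifen and 1 rose (median -0.67). Ptgir, the prostacyclin receptor gene, had the lowest log2 difference, and was at 0.648, 0.756 and 0.661 RPKM in unwounded tamoxifen skin, against 3.11, 2.75, 2.68 and 3.51 RPKM in unwounded vehicle skin (-1.56 ± 0.12, adjusted p = 1.08e-07). The receptors for prostaglandin E2 went both ways there. Ptger4 rose (0.37 ± 0.11, 0.00792), while Ptger1 (-0.88 ± 0.12), Ptger2 (-1.02 ± 0.16) and Ptger3 (-0.46 ± 0.18) fell. In wounded skin Ptger2 was higher by 1.01 ± 0.11 (3.45e-06) and Ptger1 by 0.41 ± 0.08, while Ptger3 (-1.28 ± 0.12, 1.35e-06) and Ptger4 (-0.20 ± 0.07) were lower. In all, 3 receptors rose and 4 fell in wounded skin (median -0.03). Against unwounded vehicle skin alone, 1 was higher and 3 lower in set A, and 1 was higher and 6 lower in set B. Means of Ptger1 were 6.86 RPKM in set B, 10.2 in set A, 4.39 in unwounded tamoxifen and 8.55 in unwounded vehicle skin. Those of Ptger4 were 7.32, 9.80, 11.2 and 8.55 in the same order. Between set B and set A, Ptger1 (-0.53 ± 0.11, 0.00302) and Ptger4 (-0.38 ± 0.10, 0.0101) were lower and 0 were higher. With the replicate block in a fit of both sets, Ptger4 lost its call (adjusted p = 0.0521) and Ptger1 kept it (0.00987).

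All 4 genes of prostaglandin transport and breakdown other than Hpgd fell with tamoxifen in unwounded skin (median -0.50), with Abcc4, an exporter, at -1.24 ± 0.10 (adjusted p = 2.08e-07) and Slco2a1, an importer, at -0.74 ± 0.13. Slco2a1 rose in wounded skin (0.76 ± 0.09, 1.01e-05) and was higher in set B than in set A (0.56 ± 0.12, 0.00354). Of the 4, 2 rose and 1 fell in wounded skin, and 2 were higher and 1 lower in set B than in set A.

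Of 8 tested leukotriene genes other than Alox5 and Alox5ap, 7 fell and 0 rose with tamoxifen in unwounded skin (median -1.25), and 6 rose and 0 fell in wounded skin (median 0.71). The wound count depended on the unwounded group. Against unwounded tamoxifen skin 6 were higher and 0 lower in either set. Against unwounded vehicle skin 2 were higher and 0 lower in set A (median 0.17), and 3 higher and 2 lower in set B (median -0.22). Dpep2, a dipeptidase that converts leukotriene D4 to leukotriene E4, was at 2.12 ± 0.340 RPKM in unwounded tamoxifen skin (n = 3), against 19.7 ± 4.56 RPKM in unwounded vehicle skin (n = 4), a difference of -2.92 ± 0.24 (adjusted p = 2.67e-07). Ggt5, which makes leukotriene D4 from leukotriene C4, fell by 2.28 on the log2 scale. The largest wound difference of the list was that of Cyp4f18, whose enzyme inactivates leukotriene B4, at 14.8 ± 1.95 RPKM in set B and 12.1 ± 1.94 in set A (n = 4 each), against 0.998 ± 0.0813 in unwounded tamoxifen and 3.15 ± 0.312 in unwounded vehicle skin (2.56 ± 0.08, 1.39e-10). Ltb4r1, the high-affinity receptor for leukotriene B4, rose by 1.30 ± 0.10. Ggt5 (-1.21 ± 0.16) and Dpep2 (-0.83 ± 0.23) were lower in set B than in set A, and 0 genes of the list were higher.

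The 3 other lipoxygenase genes all changed in unwounded skin. Alox15 was at 1.93, 1.20 and 1.70 RPKM in unwounded tamoxifen skin, against 43.2, 38.0, 22.4 and 27.0 RPKM in unwounded vehicle skin (-3.94 ± 0.24, adjusted p = 2.4e-08). Alox8 was at 20.5, 23.5 and 23.8 RPKM in unwounded tamoxifen skin, against 7.59, 5.36, 3.91 and 3.40 RPKM with vehicle (2.11 ± 0.35, 0.000115), the same direction as Alox12. Alox12e was at 80.5 ± 32.7 RPKM with tamoxifen (n = 3) and 153 ± 25.4 RPKM with vehicle (n = 4), with ranges that overlap (-0.98 ± 0.31, 0.0131). All 3 were lower in the mean of both wounded sets than in the mean of both unwounded groups (Alox8 -1.56 ± 0.24, Alox12e -1.12 ± 0.21 and Alox15 -0.44 ± 0.16). The Alox15 value averages opposite differences. Every wounded library lay below every unwounded vehicle library in Alox15 and above every unwounded tamoxifen library. Alox15 was also lower in set B than in set A, at 4.17, 3.03, 3.86 and 2.70 RPKM in set B, against 11.9, 6.59, 7.98 and 9.66 RPKM in set A (-1.26 ± 0.22, 0.000807). These genes have paralogs of similar sequence, and the sources used here do not say how shared reads were counted.

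Profiles over the 15 libraries were compared by the root mean square difference of centred log2(RPKM + 0.5), as a description. Nearest to Ptgds, whose own spread about its mean was 1.57, were Dct (0.37) and Pmel (0.43), which are melanocyte genes. Nearest to Alox5ap (1.23) were Pirb (0.11) and Fcer1g (0.13), which are genes of myeloid cell receptors. Ptges (0.98) was nearest to Csf2rb2 (0.23) and Csf2rb (0.24), close paralogs of each other whose reads may be shared. Alox12 (0.77) was nearest to Bmp2 (0.20) and Omp (0.26), and Alox5 (0.69) to Man1c1 (0.19) and Dennd2a (0.20). The remaining profiles had the pairs Twist1 and Nupr1 for Ptgs1, Serpinb8 and Eef2k for Hpgd, Cyp4b1 and Mst1 for Alox12b, and Dab1 and Pou2f3 for Aloxe3. Their differences were 0.12 to 0.21.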

How the data were processed

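RNA sequencing of whole skin gave 15 libraries. Per the file headers and the submitters' processing notes, the authors aligned reads to mm10 with TopHat2 2.1.0 and deposited RPKM values per gene made with Partek. The deposited sample sheet gives the alignment count of each library. The sources used here do not state the annotation, the counting rule or strand use, nor which kit made which library, so no batch could be formed.

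The 13922 of 24543 genes that reached an RPKM of 1 in 3 or more libraries were tested as log2(RPKM + 0.5) with limma 3.58.1 in R 4.3.3. It used a trended prior, 1 model of 4 groups with 11 residual and 2.57 prior degrees of freedom, two-sided tests and Benjamini-Hochberg adjustment. No count model was fitted, because RPKM values are normalized. The code was tested on simulated data. Tables and figures used Python 3.11.15, pandas 2.3.3, numpy 2.4.6 and matplotlib 3.10.9.

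Groups follow the sample records, renamed sets A and B. Same-numbered libraries of sets A and B deviated together (correlation of deviations 0.123 to 0.43, all over 0.1), so the numbers may pair these sets alone. In other pairs of groups the correlations were -0.304 to 0.425, and libraries of different number were not compared. The main model did not use this pairing, and a fit of both sets with a replicate block is given as an alternative. The pairing rests on the values and not on the labels.

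The 10 genes, the pathway lists and the markers were chosen with earlier results of these data known. All 10 are named, with all prostanoid receptors and other lipoxygenases. From each list up to 2 genes per direction and comparison with the smallest adjusted p are named, and 2 nearest profiles per gene, except for Ptgs2, for which they are not reported here. Ly6g, Ngp, Pf4, Gp1ba and Gp9 were named after their values were seen. The alternatives were other pseudocounts (0.1 and 1), no filter, another scaling, library weights, no trend, a replicate block, only the groups compared and leaving out each library.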

Additional observations from a re-analysis of the deposited data

Results flagged for a closer look

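In 3 of 30 pairs of gene and group with 4 libraries, 1 library stood far from the other 3, with a gap to its neighbour over Dixon's critical share of the range of the group, where chance gives about 1 in 20. Ptgs1 was at 32.0 RPKM in replicate 4 of set A (0.873 of the range). Ptgs2 was at 0.305 RPKM in replicate 3 of unwounded vehicle skin (0.854), and Alox12b at 27.7 RPKM in replicate 2 of unwounded vehicle skin (0.847).

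For 9 of the 10 genes under either naming, the treatment difference in wounded skin differed from that in unwounded skin, by limma's interaction term. Under the gene tables' names the differences of differences on the log2 scale were 2.17 for Alox5ap, 1.48 for Ptges, 1.42 for Alox5, 1.12 for Ptgs1, 1.10 for Ptgs2, 1.05 for Alox12b, 1.004 for Aloxe3, 0.64 for Hpgd and -3.04 for Ptgds. Under the records' names they were 3.48 for Alox5ap, 2.23 for Alox5, 2.20 for Ptges, 1.93 for Alox12b, 1.84 for Ptgs1, 1.03 for Aloxe3, -0.55 for Ptgs2, -1.66 for Alox12 and -3.98 for Ptgds. Ptgs2 has opposite signs under these names. Leaving out 1 library gave 7 to 10 genes under the gene tables' names and 8 to 10 under the records' names. Under the gene tables' names Hpgd no longer passed without replicate 3 (adjusted p = 0.0563) or 4 (0.0646) of the unwounded tamoxifen group or replicate 3 (0.0533) or 4 (0.0529) of the unwounded vehicle group. Alox12b no longer passed without replicate 4 of the unwounded tamoxifen group (0.90, 0.0652). Alox12 passed with library weights (-0.89, 0.00358) or without replicate 2 of the unwounded tamoxifen group (-1.08, 0.00126). Under the records' names Hpgd passed without replicate 2 of the unwounded vehicle group (0.44, 0.0236), and Ptgs2 no longer passed with a pseudocount of 0.1 (-0.34, 0.331) or without replicate 3 of the unwounded tamoxifen group (-0.42, 0.0734).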

How the results depend on the processing

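Over 24 other fits, of which 15 left out 1 library each, 1991 results of the 10 genes kept their direction and their side of the threshold, 23 came to pass it, 19 no longer passed it and 17 changed sign, of which 0 passed in either fit. For Ptgds, set B minus unwounded vehicle skin was -0.0021 with a pseudocount of 0.1, -0.0018 with median-of-ratios scaling, -0.2181 with library weights and -0.3949 to 0.2623 when 1 library was left out. For Hpgd, set A minus unwounded tamoxifen skin was 0.0401 with library weights and -0.0738 to 0.0599 with 1 library left out. Leaving out 1 library gave Aloxe3 differences of -0.1462 to 0.1787 for set B minus set A, -0.0929 to 0.2215 for set B minus unwounded tamoxifen skin and -0.14 to 0.2366 for set A minus unwounded tamoxifen skin. With library weights, the counts of set B against set A moved most: 5 of the 10 genes passed in place of 2, and 7041 of all genes in place of 4328. The same weights gave 8 phospholipase A2 genes in place of 5, 4 other prostanoid synthases in place of 2, 4 prostanoid receptors in place of 2, 4 leukotriene genes in place of 2, 2 other lipoxygenases in place of 1 and 5 barrier lipid genes in place of 2. The weights were taken before their estimate had converged. Without the filter on low values 3 phospholipase A2 genes passed, and with only both sets in the fit 1 barrier lipid gene did. Leaving out 1 library gave 2 to 4 of the 10 genes between set B and set A (4 without replicate 2 of the unwounded tamoxifen group). There it also gave 3 to 6 phospholipase A2 genes (3 without set B replicate 2, 3 or 4), 1 to 4 other synthases (1 without set B replicate 2 or 4 or set A replicate 3, 4 without set A replicate 4) and 2 to 4 receptors (4 without set A replicate 4). It gave 1 to 3 transport and breakdown genes (1 without set B replicate 2 or 4), 2 to 4 leukotriene genes (4 without set A replicate 2 or 4) and 1 to 2 other lipoxygenases (2 without set B replicate 1 or set A replicate 2). Barrier lipid genes were at 1 to 4 (1 without set B replicate 2 or 3 or set A replicate 2, 4 without set A replicate 4). In unwounded skin it gave 3 to 6 phospholipase A2 genes (3 without replicate 2 of the tamoxifen group). The cause was not tested, except that fits with fewer libraries have fewer degrees of freedom.

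The replicate block left 9 of the 10 genes in unwounded skin, 2 between set B and set A and 6 for the wound, the same counts as without it. In a fit of sets A and B alone, Alox12 passed without the replicate block (0.47, adjusted p = 0.0167) and with it (0.04). With the block there, an alternative added after seeing the data, 3 of the 10 genes passed and 1 prostanoid receptor in place of 2. The lowest values of the 10 genes, those of Ptgs2 in unwounded skin, rest on few reads.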
